A study of Mus musculus with 4 samples.

Results

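The RNAs described here are the named antisense and long noncoding RNAs of the mouse cerebral cortex. They were taken as the probes with a noncoding RefSeq accession whose symbol ends in os, as or os with a number, begins with Snhg, or is one of a set of well-known RNAs such as Meg3, Malat1 and Neat1. The rule matched 105 probes of 92 genes, out of 39429 probes on the array. Of these, 60 probes of 52 genes had, in 1 channel or both, a signal well above background on every array and were tested, out of 15759 tested genes. The other 40 genes did not pass that filter on dim spots, and no probe was matched to Rian, Miat, Gas5 or Sox2ot. The 52 comprised 35 RNAs named as antisense to a gene, 11 Snhg RNAs and 6 others (Meg3, Mirg, Malat1, Neat1, Peg13 and Kcnq1ot1). Fbxl12os and Speer4cos are annotated as transcribed pseudogenes, and the 7 calls described below were the same with or without them (7 of 52 and 7 of 50).

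The study compared cortex of male mice labelled Ndrg2-/- with cortex of wild-type males, all aged 3 months and on the C57BL/6N background. Each of 4 dual-colour Agilent arrays carried RNA labelled knockout in Cy5 (red) and RNA labelled wild type in Cy3 (green), from 200 ng of total RNA. No array had the dyes exchanged, so dye and genotype cannot be told apart. Whether RNA of several animals was pooled, and which part of Ndrg2 was deleted, is not given in the labels used here, so the p-values measure only the spread between these samples, which may be technical. The Ndrg2 probe itself had log2 ratios of 0.11, 0.37, 0.40 and 0.38 on arrays 1 to 4, a mean of 0.32 ± 0.14 (SD, n = 4, limma adjusted p = 0.0173), so it was higher in the samples labelled knockout. This goes against the label for a gene that was removed, although the call was lost without replicate 2 or 3 (highest adjusted p = 0.0795). A probe outside the deleted part would check nothing, and the position of the probe relative to the deletion was not analysed here. Every direction below is therefore that of the samples as labelled.

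Long noncoding RNAs are transcripts with no known protein product. Many antisense RNAs start from the opposite strand of a protein-coding gene, often from the same promoter region. Snhg RNAs are spliced transcripts whose introns hold small nucleolar RNAs, which guide chemical modification of ribosomal RNA. Malat1 lies in nuclear speckles and Neat1 builds paraspeckles, while Meg3, Mirg, Peg13 and Kcnq1ot1 come from imprinted loci, where only the copy from one parent is transcribed.

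Values are log2 ratios of labelled knockout over wild type, each as the mean ± SD over 4 arrays, and an RNA is said to be called where the limma fit over all probes gave a Benjamini-Hochberg adjusted p under 0.05. Of the 52 RNAs, 7 were called (13.5%), 1 higher and 6 lower. Across all tested genes 15.0% were called, 9.12% higher and 5.84% lower, so the share among these RNAs was close to the background. With 1 array left out in turn, 1 to 4 of the 52 were called, and Zfhx2os was among them each time. Calls over all genes fell likewise, from 2357 to between 452 and 1544 (2.87% to 9.80%). Losing a call in this way was therefore not particular to these RNAs. The median log2 ratio of the 52 was -0.03, and it was 0.01 over all genes. With median centring in place of loess these medians were 0.01 and 0.28. That setting leaves a trend of the ratio with brightness, since with the tested genes in 10 bins from dim to bright the bin median was -0.34 in the dimmest and 0.49 in the brightest, against 0.01 and 0.00 with loess. Median-centred values below are therefore given beside the median of genes in the same brightness bin, which is what loess adjusts for, so they are no separate evidence. The mean log2 ratio was below 0 for 30 of the 52 RNAs, against 45.1% of all genes. The 4 array medians of the RNAs were -0.04, -0.05, -0.02 and -0.02. The log2 ratio had 1 sign on all 4 arrays for 19 RNAs (36.5%), of which 14 were lower, against 42.7% of all genes. Among all tested genes 6730 had 1 sign, of which 2933 were lower. Zfhx2os alone among the 52 exceeded a fold of 1.5 one way on every array, as did 0.0952% of all genes. The spots of these RNAs were mostly dim, with a median log2 intensity of 7.80 against 9.72 over all genes. Brightness depends on the probe as well as the RNA, so it is given as the signal behind the ratios and not as a level.

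**Figure D1:**
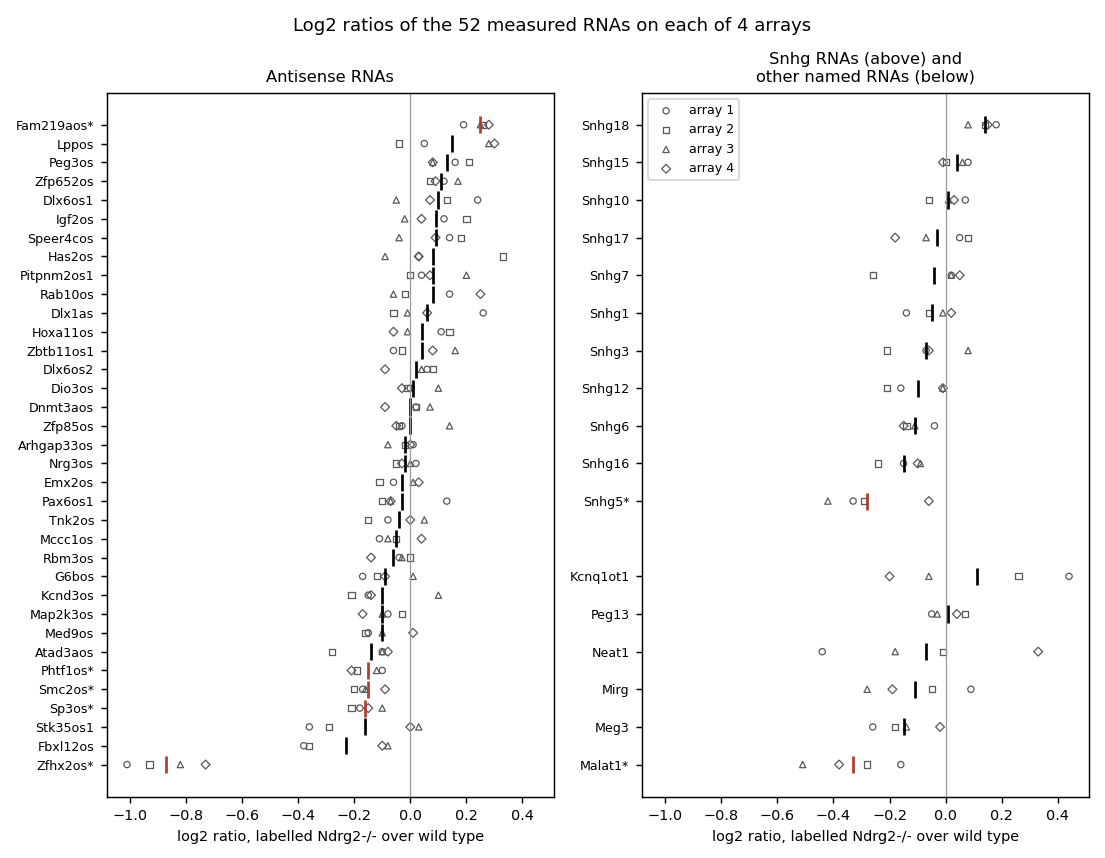
Log2 ratio of labelled Ndrg2-/- over wild type (horizontal axis) for each of the 52 RNAs, with 1 open symbol per array and a bar at the mean. Red bars and asterisks mark the 7 called RNAs. Zfhx2os lies between -1.01 and -0.73, apart from the others, whose means run no lower than the -0.33 of Malat1.

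Promoter sequences are shown for 4 RNAs, chosen after the positions and values had been seen: 3 antisense RNAs with starts close to that of their host, of which Phtf1os and Smc2os were called, so that a reader can see how much sequence a pair shares, and the called Snhg RNA. They are from RefSeq (GRCm38.p6) and each is read on the strand of the RNA, which is the minus strand for all 4. Capitals in the first 3 mark bases that also lie in the promoter window of the host gene, and in Snhg5 they mark TATAAA.
Phtf1os (chr3:103968267-103968566, minus strand): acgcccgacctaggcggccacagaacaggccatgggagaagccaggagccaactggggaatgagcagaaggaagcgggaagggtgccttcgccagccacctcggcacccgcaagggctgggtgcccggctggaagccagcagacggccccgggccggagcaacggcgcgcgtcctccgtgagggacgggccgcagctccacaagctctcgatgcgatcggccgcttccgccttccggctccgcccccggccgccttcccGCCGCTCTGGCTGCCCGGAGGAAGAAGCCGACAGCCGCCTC
Smc2os (chr4:52438915-52439214, minus strand): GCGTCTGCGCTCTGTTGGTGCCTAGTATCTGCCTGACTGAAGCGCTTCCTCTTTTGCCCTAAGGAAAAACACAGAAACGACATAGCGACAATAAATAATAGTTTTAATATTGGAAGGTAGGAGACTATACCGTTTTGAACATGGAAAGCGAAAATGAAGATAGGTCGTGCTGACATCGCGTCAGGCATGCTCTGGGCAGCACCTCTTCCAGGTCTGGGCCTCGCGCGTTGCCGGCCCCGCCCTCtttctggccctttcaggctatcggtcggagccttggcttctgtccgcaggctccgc
Med9os (chr11:59948098-59948397, minus strand): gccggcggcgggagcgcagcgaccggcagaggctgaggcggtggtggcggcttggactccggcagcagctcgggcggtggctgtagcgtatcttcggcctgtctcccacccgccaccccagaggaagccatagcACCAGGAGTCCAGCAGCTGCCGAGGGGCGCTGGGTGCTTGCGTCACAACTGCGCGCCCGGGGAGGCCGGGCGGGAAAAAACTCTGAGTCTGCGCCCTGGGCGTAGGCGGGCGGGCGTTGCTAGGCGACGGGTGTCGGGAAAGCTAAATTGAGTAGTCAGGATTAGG
Snhg5 (chr9:88522848-88523147, minus strand): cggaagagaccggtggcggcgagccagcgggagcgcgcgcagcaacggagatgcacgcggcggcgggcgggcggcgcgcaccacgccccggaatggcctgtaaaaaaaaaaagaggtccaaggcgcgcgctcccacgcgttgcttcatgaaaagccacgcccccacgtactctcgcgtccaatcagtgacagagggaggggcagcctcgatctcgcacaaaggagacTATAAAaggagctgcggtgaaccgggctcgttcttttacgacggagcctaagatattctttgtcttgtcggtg

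The window of Phtf1os shares 41 bases with that of Phtf1, and the starts lie 58 bases apart. For Smc2os and Smc2 the shared stretch is 244 bases and the starts are 257 bases apart. For Med9os and Med9 it is 166 bases, with starts 67 bases apart. In Snhg5 the motif TATAAA begins 23 bases before the start. Windows were found for 38 of the 52 RNAs (41 windows). Counting both strands, TATAAA was in 10 of these 41 windows (24.4%), in 4 of 11 Snhg windows (36.4%) and in 13.6% of all 32851 promoter windows of the same length. The dinucleotide CG occurred a median of 16 times in the windows of these RNAs, against 7 in all windows. These counts describe the letters only.

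Zfhx2os, an antisense RNA of the homeobox gene Zfhx2, differed most. Its log2 ratios were -1.01, -0.93, -0.82 and -0.73 on arrays 1 to 4. The normalized log2 intensities were 7.18, 7.25, 7.38 and 7.36 in the samples labelled knockout, against 8.19, 8.18, 8.20 and 8.09 in wild type. All knockout-labelled values lay below all wild-type values. The share of all genes whose groups do not overlap was not counted, here or for the RNAs below. The mean log2 ratio of Zfhx2os was -0.87 ± 0.13 (SD, n = 4), so that the signal fell by 45.4% in the samples labelled knockout, with an adjusted p of 0.000709. With the scanner software's processed signals the log2 ratio was -1.30, so the size of the fall depends on the processing. Zfhx2os is also the RNA on the list nearest to Ndrg2, 3.2 Mb away on chromosome 14. The genes around it did not share its size of difference: Zfhx2 had a log2 ratio of -0.17 ± 0.11 (adjusted p = 0.0652), Thtpa -0.02 ± 0.13, Ap1g2 0.02 ± 0.14, and Ngdn was called higher at 0.22 ± 0.07 (adjusted p = 0.0202). The other tested RNA on chromosome 14, Nrg3os, lies 13.0 Mb from Ndrg2 and had a log2 ratio of -0.02 ± 0.04. Ppifos, 26.2 Mb away, did not pass the filter on dim spots. Any part of the distance to Ndrg2 in this result was not tested.

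Malat1, the abundant nuclear speckle RNA, was called lower. Its log2 ratios were -0.16, -0.28, -0.51 and -0.38 on arrays 1 to 4. The log2 intensities were 10.30, 10.64, 10.29 and 10.15 in samples labelled knockout, against 10.46, 10.93, 10.79 and 10.54 in wild type. Knockout-labelled RNA was lower within each array, although the ranges of the groups overlapped. The mean log2 ratio was -0.33 ± 0.15 (SD, n = 4), so that the signal fell by 20.6%, with an adjusted p of 0.0169. Leaving out 1 array gave -0.39 to -0.28, and the call was lost without replicate 2 or 3 (highest adjusted p = 0.0676). With median centring it stood at 0.01 (adjusted p = 0.886) and was not called, where the median of its brightness bin was 0.37. Neat1, its neighbour on chromosome 19 and the scaffold of paraspeckles, had log2 ratios of -0.44, -0.01, -0.18 and 0.33, with no common direction, and a mean of -0.07 ± 0.32 (adjusted p = 0.678). In a list of speckle and paraspeckle proteins that also held splicing regulators, 21 genes were tested. Of these 1 was called higher and 2 lower, where 15.0% of all genes were called. The median log2 ratio was -0.01 against 0.01 over all genes. The called ones were Rbm14, a paraspeckle protein, at 0.20 ± 0.05, the speckle protein Srrm1 at -0.17 ± 0.05, and the splicing regulator Celf3 at -0.67 ± 0.36.

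Snhg5 was the Snhg RNA that was called. Its log2 ratios were -0.33, -0.29, -0.42 and -0.06 on arrays 1 to 4. The log2 intensities were 7.23, 7.15, 6.91 and 7.13 in samples labelled knockout, against 7.56, 7.44, 7.33 and 7.19 in wild type. Array 4 showed the smallest difference, and the groups overlapped. The mean log2 ratio was -0.28 ± 0.15 (SD, n = 4, adjusted p = 0.0279), with a range of -0.35 to -0.23 when 1 array was left out, and the call was lost without replicate 1, 2 or 3 (highest adjusted p = 0.106). Of the 11 Snhg RNAs, 1 was called (9.09%, against 15.0% of all genes), and the median log2 ratio was -0.05. Snhg16 had -0.15 ± 0.07 (adjusted p = 0.0584) and Snhg18 had 0.14 ± 0.04 (adjusted p = 0.0558), each with 1 sign on all 4 arrays. The other Snhg16 probe gave 0.01 ± 0.08 (adjusted p = 0.918), with ratios of -0.08, -0.01, 0.02 and 0.11, so the probes disagreed. That probe was dimmer, with a mean log2 intensity of 7.42 against 9.61. Snhg6 at -0.11 ± 0.05 (adjusted p = 0.109) likewise had negative ratios on all arrays.

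The remaining Snhg RNAs were nearer 0 and none was called. Snhg12 had a mean log2 ratio of -0.10 ± 0.10, Snhg3 of -0.07 ± 0.12 and Snhg1 of -0.05 ± 0.07. Snhg7 and Snhg17 had -0.04 ± 0.15 and -0.03 ± 0.12, with signs that differed between arrays. Snhg10 had 0.01 ± 0.06 and Snhg15 had 0.04 ± 0.04. Among 16 tested proteins of the small nucleolar particles, 2 were called higher and 3 lower, with a median log2 ratio of -0.02. Across all tested genes 9.12% were called higher and 5.84% lower. Fbl, the methyltransferase fibrillarin, had -0.27 ± 0.07, Nop10 -0.20 ± 0.01 and Snu13 -0.18 ± 0.05, while the assembly factors Naf1 and Ruvbl2 had 0.27 ± 0.11 and 0.20 ± 0.11. Among 15 tested factors of nonsense-mediated decay, the pathway that removes many spliced Snhg transcripts, 1 was called higher (Smg1, 0.20 ± 0.10) and 1 lower (Rbm8a, -0.16 ± 0.05). Of all tested genes 15.0% were called.

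None of the 4 imprinted RNAs named by symbol was called. Meg3, the maternally expressed RNA of the Dlk1 locus, was measured by 3 probes. Its brightest probe had log2 ratios of -0.26, -0.18, -0.14 and -0.02 and a mean of -0.15 ± 0.10 (adjusted p = 0.0798). The other Meg3 probes gave -0.09 ± 0.08 and -0.14 ± 0.07. Mirg, from the same locus, had -0.11 ± 0.16, with 0.09 on array 1 and negative ratios on the others. Peg13, which lies within Trappc9, had 0.01 ± 0.06.

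Kcnq1ot1, the paternally expressed antisense transcript of Kcnq1, had log2 ratios of 0.44, 0.26, -0.06 and -0.20 on arrays 1 to 4. The arrays disagreed in direction, and the mean was 0.11 ± 0.30 (adjusted p = 0.486). Its other probe gave -0.03 ± 0.18. Immediate early genes, which neurons switch on within minutes of activity, also differed by array, with medians of 1.24, 0.87, -0.09 and 0.28. Their part in the spread of Kcnq1ot1 was not tested. Of 22 tested genes of imprinted loci, 3 were called higher and 0 lower, with a median log2 ratio of 0.06. Across all tested genes 9.12% were called higher and 5.84% lower. Some of the 22 lie near these RNAs and others, such as Gnas and Igf2r, at loci elsewhere. The called genes, at an adjusted p under 0.05, were Igf2 at 0.38 ± 0.18, Begain at 0.30 ± 0.08 and Gnas at 0.26 ± 0.05.

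**Figure D2:**
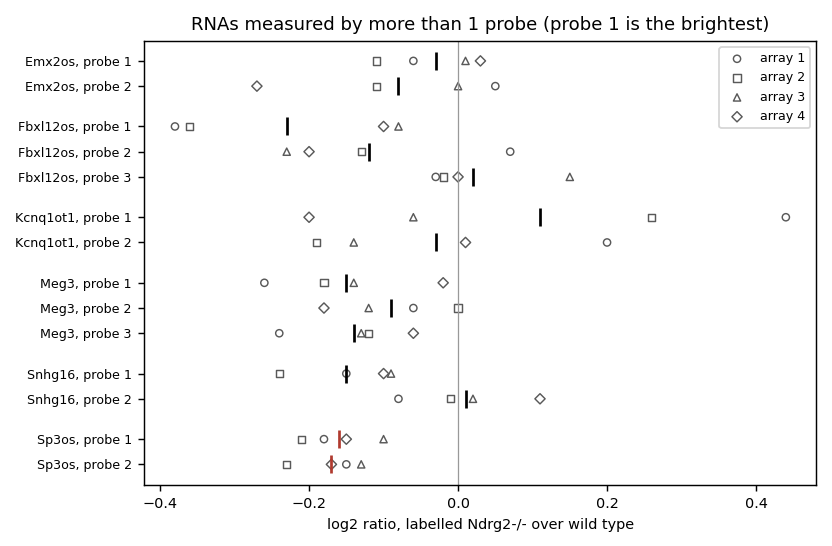
Log2 ratio of labelled Ndrg2-/- over wild type (horizontal axis) for each kept probe of the 6 RNAs with more than 1 probe, with 1 open symbol per array, a bar at the mean and red bars for called probes. The probes of Sp3os gave -0.16 and -0.17, while those of Fbxl12os ran from -0.23 to 0.02.

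The other called RNAs were antisense RNAs with smaller differences. Fam219aos had log2 ratios of 0.19, 0.26, 0.25 and 0.28 on arrays 1 to 4. The log2 intensities were 7.07, 7.15, 7.05 and 7.09 in samples labelled knockout, against 6.89, 6.89, 6.80 and 6.81 in wild type. The groups did not overlap, and Fam219aos was the 1 RNA of the 52 that was called higher, at 0.25 ± 0.04 (SD, n = 4, adjusted p = 0.0117). The call was lost without replicate 2 or 3 (highest adjusted p = 0.0644), and with median centring the ratio was 0.05 (adjusted p = 0.378), where the median of its brightness bin was -0.12.

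Sp3os, antisense to the transcription factor gene Sp3, had log2 ratios of -0.18, -0.21, -0.10 and -0.15, a mean of -0.16 ± 0.05 (adjusted p = 0.0381). Its other probe gave -0.17 ± 0.04 (adjusted p = 0.0309), so both probes were called lower; with median centring the brighter probe stood at 0.19, where the median of its brightness bin was 0.37. Phtf1os had -0.10, -0.19, -0.12 and -0.21, a mean of -0.15 ± 0.05 (adjusted p = 0.0434). With median centring Phtf1os stood at -0.05 (adjusted p = 0.352) and was not called, where the median of its brightness bin was 0.09. Smc2os, antisense to the condensin gene Smc2, had -0.17, -0.20, -0.16 and -0.09, a mean of -0.15 ± 0.05 (adjusted p = 0.0438). With median centring Smc2os stood at -0.27 (adjusted p = 0.000448), where the median of its brightness bin was -0.12. In all 3 the labelled knockout was lower on each array while the ranges of intensity overlapped between the groups. Each of these 3 calls was lost with any 1 array left out, with adjusted p-values up to 0.143 for Sp3os, 0.151 for Phtf1os and 0.157 for Smc2os. The 3 calls were also lost with no filter on dim probes, at adjusted p-values of 0.0503, 0.0577 and 0.0583 in the same order. With the scanner software's processed signals, or the authors' deposited table, 4 of the 7 calls remained (Zfhx2os, Snhg5, Smc2os and Fam219aos), and Malat1, Sp3os and Phtf1os were not called. Of all genes 8.43% were called with either. With the processed signals these 4 had log2 ratios of -1.30, -0.47, -0.30 and 0.41, each larger in size than in the main fit. The part of the offset of 50 added in the background correction was not tested.

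**Figure D3:**
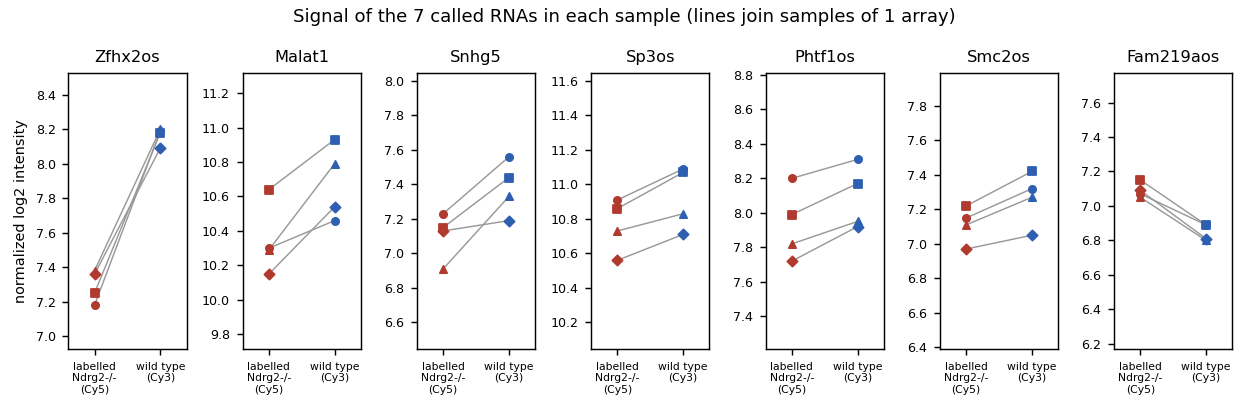
Normalized log2 intensity (vertical axis, same span in each panel) of the 7 called RNAs in the samples labelled Ndrg2-/- (red, left) and wild type (blue, right), with lines joining samples of 1 array. Zfhx2os and Fam219aos have groups that do not overlap, and the other 5 differ within arrays while their groups overlap. How many of all genes have groups that do not overlap was not counted.

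Fbxl12os, one of the transcribed pseudogenes, was not called. Its brightest probe had log2 ratios of -0.38, -0.36, -0.08 and -0.10, a mean of -0.23 ± 0.16 (adjusted p = 0.0522). The other Fbxl12os probes gave -0.12 ± 0.13 and 0.02 ± 0.09, so the probes disagreed in size and sign. A pseudogene can share sequence with other genes, so these values are uncertain. Peg3os had positive ratios of 0.16, 0.21, 0.08 and 0.08, and its groups did not overlap, but at 0.13 ± 0.06 it was not called (adjusted p = 0.0742).

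Each antisense RNA was then set against its host gene, the protein-coding gene it is named after, within each array. Host values were available for 32 pairs with 31 host genes, since Dlx6os1 and Dlx6os2 share Dlx6, and Kcnq1ot1 was paired with Kcnq1. G6bos, Has2os, Hoxa11os and Speer4cos had no tested host, and their log2 ratios were -0.09, 0.08, 0.04 and 0.09. Of the 31 hosts 6 were called (19.4%, against 15.0% of all genes), 4 higher and 2 lower. Both members of a pair were called in 2 pairs, in the same direction each time, and in 3 pairs the antisense RNA alone and in 4 the host alone was called. Neither was called in 23 pairs. The antisense RNA was below its host in 20 pairs and above it in 12, with a median difference of -0.07. This median was -0.16 with the processed signals or the deposited table, and -0.36 with median centring, which keeps the trend with brightness. The difference had 1 sign on all 4 arrays in 17 pairs, 13 below and 4 above. How often other pairs of genes differ in these ways was not counted, so these counts have no background beside them. Of single genes, 42.7% had 1 sign on all 4 arrays. An exact two-sided sign-flip permutation test over 4 arrays cannot go below p = 0.125, and the smallest p adjusted over the 32 pairs was 0.235, so no difference passed the threshold. The antisense RNAs were also dimmer than the hosts (median log2 intensity 7.55 and 9.61), and the part of signal strength in these differences was not tested.

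The pairs in which both were called were Fam219aos with Fam219a and Phtf1os with Phtf1. Against the 0.25 ± 0.04 of Fam219aos, Fam219a had log2 ratios of 0.43, 0.44, 0.45 and 0.47 on arrays 1 to 4, a mean of 0.45 ± 0.02 (SD, n = 4, adjusted p = 0.000920), and its other probe gave 0.37. The antisense RNA minus its host was negative on each array, with a mean of -0.20 ± 0.03. Against the -0.15 ± 0.05 of Phtf1os, Phtf1 had -0.16, -0.24, -0.23 and -0.18, a mean of -0.20 ± 0.04 (adjusted p = 0.0196). Phtf1os minus Phtf1 came to 0.05 ± 0.06, and this difference did not have 1 sign on all arrays. These RNAs, whose starts lie 58 bases apart, were both called lower. The start of Phtf1 lies just beyond the end of the printed window of Phtf1os. The host call was lost without replicate 1, 2 or 3 (highest adjusted p = 0.0880), and with median centring Phtf1 stood at 0.17, where the median of its brightness bin was 0.39.

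**Figure D4:**
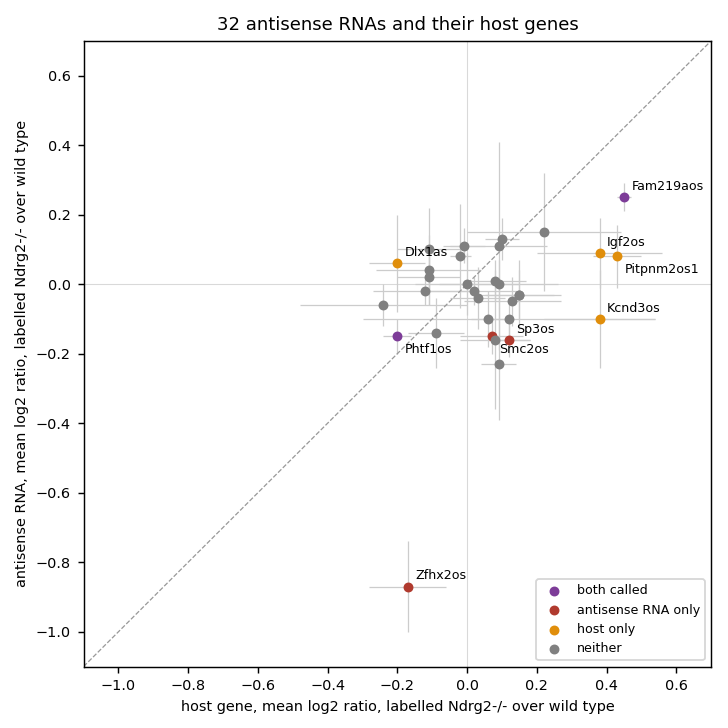
Mean log2 ratio of the antisense RNA (vertical axis) against that of its host gene (horizontal axis), labelled Ndrg2-/- over wild type, for 32 pairs, with bars of 1 SD over 4 arrays and a dashed line of equality. Zfhx2os lies at -0.87 with its host at -0.17, and 4 points named at the right of the plot are pairs whose host was called higher.

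In 3 pairs the antisense RNA alone was called. Zfhx2os minus Zfhx2 was -0.97, -0.81, -0.54 and -0.47 on arrays 1 to 4, a mean of -0.70 ± 0.24. The other Zfhx2 probe gave 0.03, while the brighter one gave -0.17. Sp3os at -0.16 stood against Sp3 at 0.12 ± 0.06 (adjusted p = 0.0860), a difference of -0.29 ± 0.09. Smc2os at -0.15 stood against Smc2 at 0.07 ± 0.09 (adjusted p = 0.362), a difference of -0.22 ± 0.09, although their windows share 244 bases. All 3 differences were negative on all 4 arrays.

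In 4 pairs the host alone was called. Kcnd3os had -0.10 ± 0.14 and Kcnd3, a voltage-gated potassium channel gene, had 0.38 ± 0.16 (adjusted p = 0.0146), a difference of -0.58, -0.35, -0.37 and -0.62 on arrays 1 to 4. The other Kcnd3 probe gave -0.03, so its probes disagreed, and the call was lost without replicate 1 or 3 (highest adjusted p = 0.0559). Pitpnm2os1 had 0.08 ± 0.09 and Pitpnm2, a phosphatidylinositol transfer protein gene, had 0.43 ± 0.07 (adjusted p = 0.00184), a difference of -0.35 ± 0.05. Dlx1as had 0.06 ± 0.14 and Dlx1, a homeobox gene of inhibitory neurons, had -0.20 ± 0.08 (adjusted p = 0.0323), a difference of 0.26 ± 0.18. The spots of Dlx1as were not well above background on every array of one channel, and the Dlx1 call was lost without replicate 1, 2 or 3 (highest adjusted p = 0.117).

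Igf2os had 0.09 ± 0.10 and the imprinted growth factor gene Igf2 had 0.38 ± 0.18 (adjusted p = 0.0170), a difference of -0.29 ± 0.13. The Igf2 call was lost without replicate 1 or 2 (highest adjusted p = 0.0785). All 6 tested markers of meningeal fibroblasts (Dcn, Lum, Col1a1, Col1a2, Col3a1 and Mgp) were called higher as well, with medians of 0.64, 0.42, 0.22 and 0.75 over the arrays. Of 5 markers of choroid plexus 1 was called. Across all tested genes 9.12% were called higher and 5.84% lower. In bulk RNA, more cells of a type and more RNA per cell cannot be told apart. The part of these markers in the value of Igf2 was not tested.

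The Dlx6 pairs and the other pairs with differences of 1 sign on all arrays had no call in either member in the main fit. Dlx6os1 at 0.10 and Dlx6os2 at 0.02, RNAs of the Dlx5 and Dlx6 locus of inhibitory neurons, stood against Dlx6 at -0.11, giving differences of 0.21 ± 0.11 and 0.14 ± 0.02. Dlx6 was dim, and its value depended on the processing. It was called lower without background subtraction (-0.23, adjusted p = 0.0224) and with the processed signals (-0.52, adjusted p = 0.0368). With median centring it stood at -0.40 (adjusted p = 0.000176), where the median of the dimmest bin was -0.34. Among 11 markers of inhibitory neurons 1 was called higher and 1 lower, with a median of -0.01, where 15.0% of all genes were called. These markers include the hosts Dlx1, which is the marker called lower, and Dlx6. The remaining such differences were -0.32 for Fbxl12os (host 0.09), -0.24 for Stk35os1 (host 0.08, with 0.02 from its other probe), -0.18 for Emx2os (host 0.15), -0.18 for Mccc1os (host 0.13, with -0.08 from its other probe), -0.17 for Pax6os1 (host 0.15), -0.15 for Med9os (host 0.06) and 0.13 for Zfp652os (host -0.01).

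In the other pairs the sign of the difference varied between arrays. Larger differences of this kind were -0.22 ± 0.37 for Map2k3os (antisense -0.10, host 0.12), 0.18 ± 0.28 for Rbm3os (antisense -0.06, host -0.24) and 0.15 ± 0.21 for Zbtb11os1 (antisense 0.04, host -0.11). The other probes of these hosts had medians of 0.00 for Rbm3 and 0.05 for Zbtb11, so the probes of a host disagreed and these differences depend on the probe. For Nrg3os (host -0.12) and Rab10os (antisense 0.08, host -0.02) the difference was 0.10. For Dnmt3aos (antisense 0.00, host 0.09) it was -0.08, and for Dio3os (antisense 0.01, host 0.08), Lppos (antisense 0.15, host 0.22, with 0.04 from its other probe) and Tnk2os (antisense -0.04, host 0.03) it was -0.07. Differences of 0.05 or less in size were found for Atad3aos (antisense -0.14, host -0.09), Arhgap33os (antisense -0.02, host 0.02), Kcnq1ot1 (host 0.09), Peg3os (host 0.10) and Zfp85os (antisense 0.00, host 0.00). The spots of Dio3os and Tnk2os were not well above background on every array of one channel.

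Start sites of both RNAs were known for 17 pairs, of which 6 were divergent and 11 faced each other. In the 8 pairs with starts within 1000 bases, a limit chosen after the distances had been seen, the size of the difference had a median of 0.17 and ran from 0.05 to 0.24. In the 9 pairs with starts farther apart the median size was 0.10, with a range of 0.00 to 0.48. The ranges overlapped, and no test was made.

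Other long noncoding RNAs, from a list outside the naming rule, were 14 in number among the tested genes. Of these 1 was called higher and 2 lower, with a median log2 ratio of -0.04. Dancr had 0.25 ± 0.14 (adjusted p = 0.0333), while Dleu2 had -0.32 ± 0.15 (adjusted p = 0.0192) and Norad, a cytoplasmic RNA that binds Pumilio proteins, had -0.26 ± 0.15 (adjusted p = 0.0329). Of the other 522 tested genes with noncoding accessions, 51 were called (9.77%), against 13.5% of the 52 RNAs and 15.0% of all genes. Among 12 tested Polycomb and X-inactivation partners, proteins that some long noncoding RNAs bind, Jarid2 was called higher at 0.19 ± 0.06 and Rbbp7 lower at -0.17 ± 0.07. The 6 gene lists held 18 called genes in all, but 5 when processed signals were used. The share of all genes called was 15.0%, and 8.43% with those signals. Of these 18 Begain kept its call with each array left out. The calls of Jarid2, Norad, Rbbp7, Rbm8a, Smg1 and Srrm1 were lost with any 1 array left out (highest adjusted p = 0.150, for Rbm8a). Those of Dleu2, Nop10, Rbm14, Ruvbl2 and Snu13 were lost without replicate 1, 2 or 3 (highest 0.125, for Ruvbl2), and that of Dancr without replicate 1, 3 or 4 (highest 0.114). The calls of Naf1 and Igf2 were lost without replicate 1 or 2 (highest 0.0737 for Naf1), and those of Celf3, Fbl and Gnas without replicate 2 (0.0684, 0.0562 and 0.0619). With median centring Fbl, Nop10, Norad, Rbbp7, Rbm8a, Snu13 and Srrm1 had ratios above 0, from 0.08 for Fbl, which was not called, to 0.29 for Snu13, each below the median of its brightness bin.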

How the data were processed

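RNA from mouse cerebral cortex was measured on 4 dual-colour Agilent arrays, on 1 slide in 1 scan per the file headers. Images were extracted with Feature Extraction, whose version the file headers give as 11.0.1.1 but the submitters' processing notes as 10.7.3.1. The deposited intensity used here was the median over a spot's pixels, beside its local background, per the file headers. Processed signals and their log10 ratio (red over green) were also deposited. The authors also deposited a table of log2 ratios, which matched the processed signals.

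Ratios were computed from the deposited intensities in R 4.3.3 with limma 3.58.1: normexp background correction (offset 50) and loess within each array, with 1377 control spots per array at weight 0 and 802 outlier spots left out over all arrays. Replicate spots were averaged. Probes were kept whose signal, in 1 channel or both, was well above background on every array (27664 of 39429). An intercept-only model was fitted with lmFit and eBayes, with Benjamini-Hochberg adjustment across the kept probes. The within-array ratio pairs the samples of 1 replicate number, as the labels place them on 1 array. Symbols came from matching accessions to RefSeq (GRCm38.p6), and 82 of 1382 probes with noncoding accessions had none. A gene is represented by its brightest kept probe. The fit was tested on simulated ratios with known changes and independent noise for each probe. These held no dye effect, no trend with brightness and no effect shared by genes of an array. The simulation therefore does not check the calls for such effects. The number of arrays limits the precision, and median signals were 283 to 335.5 in red and 94 to 122 in green. The array annotation uses another assembly, but its positions were not used. Distances were taken from RefSeq positions and serve only as descriptions.

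Named were all called RNAs, every well-known and Snhg RNA, every antisense RNA with a tested host, tested RNAs within 40 Mb of Ndrg2, and called genes of the 6 lists of pathways and related RNAs (Snu13 beyond the limit of 4 a list, after its value was seen). Marker lists are given only beside results they touch. The members, lists and alternatives were chosen with earlier results of these data known. The printed promoters, the brightness bins, the motif counts, the distance limit and the flanking genes were chosen after values or positions had been seen. In all, 13 alternative settings were run, covering background correction, normalization, the dim-probe filter, left-out replicates, the deposited table, pairing and the probe that stands for a gene.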

Additional observations from a re-analysis of the deposited data

Results flagged for a closer look

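In 4 of the 52 RNAs 1 array stood far from the other 3, by the gap to its nearest neighbour relative to the whole range of the log2 ratios of labelled knockout over wild type. Chance sets apart about 1 in 20 such groups. Atad3aos had -0.28 on array 2, against -0.10 to -0.08 on the others. Pax6os1 had 0.13 on array 1, against -0.10 to -0.07. Snhg7 had -0.26 on array 2, against 0.02 to 0.05. Zfp85os had 0.14 on array 3, against -0.05 to -0.03. None of these 4 RNAs was called.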

How the results depend on the processing

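The 52 RNAs gave 7 calls. This count was 8 without background subtraction or with the median over the probes of a gene, 7 with both channels required or Aquantile scaling, 4 with the processed signals, with the authors' deposited table or with no filter on dim probes, and 1 to 4 with 1 array left out. The main fit called 15.0% of all genes. That share was 15.4% without background subtraction, 14.3% with the median over probes and 15.3% with both channels required. It was 8.43% with the processed signals or the deposited table, 12.8% with no filter and 2.87% to 9.80% with 1 array left out. With no replicate block, that is, comparing the channels without the pairing within arrays, 1 of the 52 and 10 of all genes were called. Zfhx2os was called under all 13 alternatives (log2 ratio -1.30 to -0.83). It alone passed 1.5 fold on every array in the fit wherever this was counted. Of the 13, Aquantile scaling repeats the ratios with loess, and the deposited table those of the processed signals, so 11 could give other calls. Median centring in place of loess moved the median of all genes to 0.28 and called 12971 of 15759, with 10645 higher and 2326 lower, against 1437 higher and 920 lower with loess, and 38 of the 52 RNAs were then called. This setting keeps a trend with brightness, from a median of -0.34 in the dimmest of 10 bins of genes to 0.49 in the brightest. The bins were chosen after seeing the data. The median of the RNAs was -0.05 without background subtraction, -0.08 with the processed signals or the deposited table, 0.01 with median centring, and -0.04 to -0.01 with 1 array left out. The median of antisense minus host was -0.16 with the processed signals or the deposited table and -0.36 with median centring. The 18 called genes of the lists became 5 with the processed signals and 91 with median centring. The cause of these shifts was not tested.

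Signs that changed were as follows. Median centring gave Dio3os -0.41, Dlx1as -0.40, Fbxl12os 0.23, Has2os -0.17, Hoxa11os -0.15, Igf2os -0.09, Malat1 0.01, Mccc1os 0.00, Meg3 0.41, Mirg 0.29, Neat1 0.31, Peg3os -0.21, Pitpnm2os1 -0.01, Snhg1 0.10, Snhg12 0.28, Snhg16 0.15, Snhg17 0.02, Snhg3 0.29, Snhg6 0.29, Snhg7 0.27, Sp3os 0.19, Speer4cos -0.27, Stk35os1 0.03, Zfp85os -0.37, Atad3a 0.33, Dio3 -0.18, Dlx1 0.03, Fbl 0.08, Kcnq1 -0.15, Nop10 0.19, Norad 0.24, Nrg3 0.05, Pax6 0.00, Phtf1 0.17, Rab10 0.37, Rbbp7 0.26, Rbm3 0.17, Rbm8a 0.18, Snu13 0.29, Srrm1 0.25, Zbtb11 0.22 and Zfp652 0.03. Among these, Sp3os, Phtf1, Nop10, Norad, Rbbp7, Rbm8a, Snu13 and Srrm1 were called lower with loess and higher with median centring. The processed signals and the deposited table gave Dio3os -0.27, Dnmt3aos -0.05, Has2os -0.01, Snhg10 -0.01, Zfp85os -0.03, Tnk2 -0.01 and Zfp85 -0.07. Without background subtraction the values were Dio3os -0.01, Dlx1as -0.02, Dlx6os2 0.00, Dnmt3aos -0.02, Snhg10 -0.01 and Zfp85 -0.04. With 1 array left out in turn the ranges that crossed 0 were Arhgap33 -0.04 to 0.06, Dio3os -0.01 to 0.03, Dlx1as 0.00 to 0.10, Dnmt3aos -0.02 to 0.03, Has2os -0.01 to 0.13, Map2k3 -0.03 to 0.27, Neat1 -0.21 to 0.05, Peg13 -0.01 to 0.03, Snhg10 -0.01 to 0.04, Snhg17 -0.07 to 0.02, Snhg7 -0.07 to 0.03, Tnk2 0.00 to 0.06, Zbtb11os1 0.00 to 0.07, Zfp652 -0.03 to 0.01, Zfp85 -0.06 to 0.05 and Zfp85os -0.04 to 0.02. Signals of 4 probes (of Dio3os, Dlx1as, Tnk2os and Emx2os) were not well above background on every array of one channel, which limits their ratios.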
